A study of Mus musculus with 21 samples.

Results

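Coagulation factor X, encoded by F10, and 8 further genes of blood clotting and clot breakdown were followed across neutrophils (PMNs) and renal tubular epithelial cells (TECs) of mice. The 9 genes, of 54123 in the deposited tables, were chosen by symbol: F10, F3, F5, F7, F13a1, Thbd, Plau, Plaur and Plat. F10 entered because its level differed between PMNs of sham-operated mice with and without conditioning, so its values in contrasts that use these PMNs are given as a description only. The other members are further genes of the pathway, and the list was chosen with earlier results of these data known. Counts of members set beside those of all genes are therefore a description, not independent evidence.

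The 21 RNA-Seq libraries came from wildtype male C57BL/6 mice of 8 to 12 weeks. PMNs, taken from blood, gave 10 libraries and TECs, taken from kidney, gave 11, all 24 h after surgery. Surgery was either ischemia-reperfusion injury (IRI), caused by a 32 min clamp on the renal pedicles, or a sham operation. Before it, mice received remote ischemic preconditioning (RIPC), which was 3 cycles of 5 min of cuff inflation on a hind limb, or a weak cuff inflation that left the limb perfused, called control here. The control groups after sham surgery held 2 PMN and 3 TEC libraries, the control groups after IRI held 2 PMN and 2 TEC libraries, and each of the 4 RIPC groups held 3 libraries. The study describes its libraries as biological replicates, and the labels do not say which animals each came from.

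Clotting starts when tissue factor (F3) on a cell binds factor VII (F7), and the pair activates factor X. Active factor X, with factor V (F5) as cofactor, turns prothrombin into thrombin, which makes fibrin, and factor XIII (F13a1 encodes its catalytic A subunit) cross-links the fibrin. Thrombomodulin (Thbd) turns thrombin toward activating protein C, an anticoagulant. The clot is dissolved by plasmin, which urokinase (Plau) and tissue plasminogen activator (Plat) cut from plasminogen, and Plaur encodes the receptor that holds urokinase at the cell surface. Most factor X of plasma is made by the liver, while neutrophils and monocytes are known for carrying the urokinase receptor.

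Levels are given as CPM, read counts divided by library sizes that were scaled by the trimmed mean of M-values (TMM) over all 21 libraries. Levels of different genes are compared only as TPM, which also corrects for transcript length. Totals ran from 20881334 to 30507235 reads in PMNs and from 21479605 to 51624602 in TECs. Genes with at least 3 reads numbered 15326 to 24127 in PMN libraries and 12899 to 22246 in TEC libraries. The fewest were in PMNs Sham Control replicate 2 and in TECs Sham Control replicate 2. The neutrophil list (10 genes) summed to 6078 to 33560 CPM in PMNs and to 1.72 to 109 CPM in TECs, and the proximal tubule list (8 genes) to 952 to 11350 CPM in TECs. Each of these 8 tubule genes also had more than 3 reads in every PMN library, with a sum of 175 to 3116 CPM, highest in PMNs Sham Control replicate 2. The monocyte and macrophage list (12 genes) summed to 3180 to 9971 CPM in PMNs after sham and to 1419 to 2678 CPM after IRI, and all 12 genes had more than 3 reads in every PMN library after IRI. Fewer cells of a type and less RNA per cell cannot be told apart in such bulk samples.

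The sequences upstream of F10 and Plaur are shown because F10 named the set and Plaur was the member called for IRI against sham in PMNs. They are the RefSeq promoter windows on build GRCm38.p6, plus strand, from 250 bases before the transcription start to 30 bases after it, for F10 chr8:13037058-13037337 and for Plaur chr7:24462233-24462512. Capitals mark matches, on either strand, to the letters TGANTCA (the AP-1 motif), CCAAT (the CCAAT box) and GAGGAA (the core of the PU.1 motif), none of which overlap here.
F10: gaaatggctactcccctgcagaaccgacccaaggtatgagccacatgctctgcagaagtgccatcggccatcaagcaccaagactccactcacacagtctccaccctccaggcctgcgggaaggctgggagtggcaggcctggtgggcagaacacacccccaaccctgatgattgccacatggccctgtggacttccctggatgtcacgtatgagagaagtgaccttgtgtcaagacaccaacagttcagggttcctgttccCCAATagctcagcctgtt
Plaur: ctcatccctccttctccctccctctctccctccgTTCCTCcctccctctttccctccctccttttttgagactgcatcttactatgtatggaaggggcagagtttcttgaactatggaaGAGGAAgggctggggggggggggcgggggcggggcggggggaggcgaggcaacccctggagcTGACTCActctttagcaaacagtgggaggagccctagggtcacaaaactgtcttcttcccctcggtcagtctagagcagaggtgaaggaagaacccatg

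The F10 window held 1 CCAAT and no match to the other letters, and the Plaur window held 1 TGANTCA at position -69 from the start and 2 matches to GAGGAA. Of all 32851 promoter windows of 300 bases in the table, 7.81% held TGANTCA, 37.4% CCAAT and 28.3% GAGGAA. The table held 7 windows for 6 of the 9 members. The tissue factor window (chr3:121723287-121723586) held 2 matches to TGANTCA, and that of F5 held no match to any of the 3 motifs. The F7 window held 1 CCAAT and 1 GAGGAA. Of the 2 windows of F13a1, 1 held 1 CCAAT and 2 GAGGAA, and the other held 1 GAGGAA.

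F10 lies on chromosome 8 of GRCm38 from 13037308 to 13056676, just downstream of F7 on the same strand. In PMNs of control mice after sham surgery its level was 59.9 and 42.2 CPM, and in PMNs after sham surgery with RIPC it was 0.198, 0.501 and 0.519 CPM, or 4, 11 and 10 reads. In PMNs after IRI it was 170.5 and 244 CPM in controls and 345, 283 and 258 CPM with RIPC. The 5 PMN libraries after IRI thus lay above all 5 after sham, and the sham RIPC libraries were the lowest of the 10. The fitted log2 fold change was -6.99 (SE 0.61) for RIPC against control after sham and 5.74 (SE 0.46) for IRI against sham, values that the choice of F10 used and that carry no test. IRI against sham, here and below, averages the control and RIPC groups on each side on the log scale. For F10 the mean went from 51.1 to 207 CPM in controls and from 0.406 to 295 CPM with RIPC. The value of 5.74 thus describes neither controls nor RIPC alone.

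Among PMNs, the contrast that shares no library with the choice of F10 is RIPC against control in PMNs after IRI. There the mean level was 295 ± 44.7 CPM with RIPC (SD, n = 3) and 207 ± 52.2 CPM without it (SD, n = 2). The 3 RIPC libraries lay above both controls, but the log2 fold change was 0.47 (SE 0.52) and did not pass the edgeR quasi-likelihood test (Benjamini-Hochberg adjusted p = 1.0). After sham the controls had held the higher values. Whether the RIPC effect differed between sham and IRI was not tested, since the sham libraries chose the gene.

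**Figure D1:**
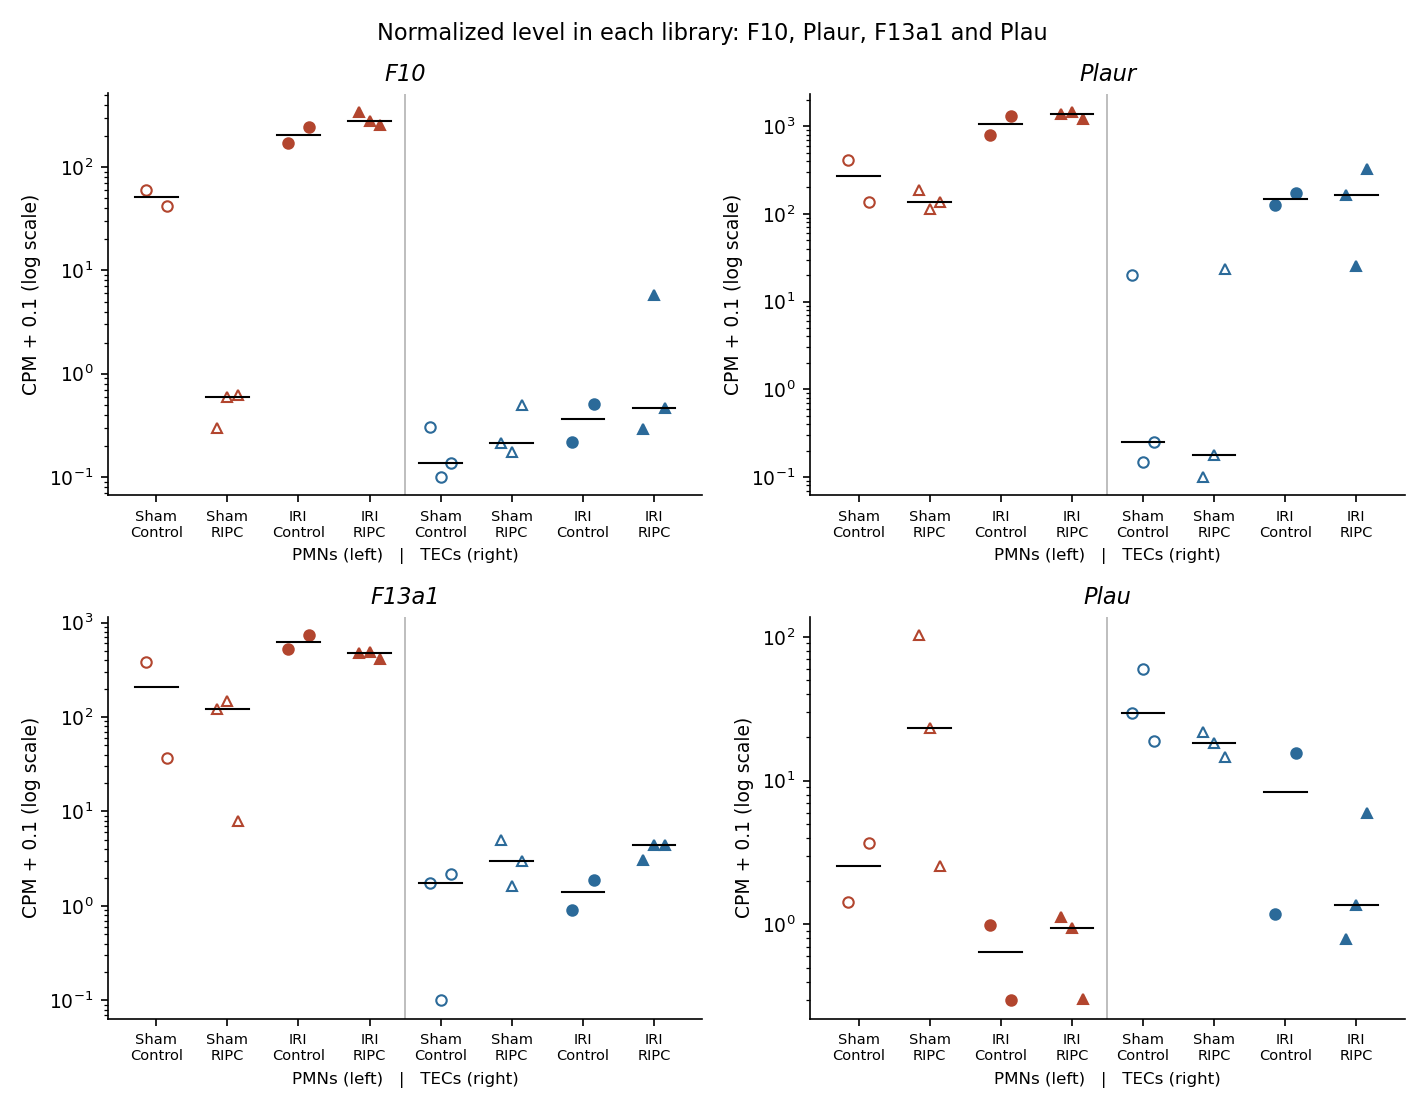
Level of F10, Plaur, F13a1 and Plau in each of the 21 libraries, as CPM + 0.1 on a log axis, by surgery and conditioning, with PMNs in red on the left and TECs in blue on the right. Circles are controls, triangles RIPC, open symbols sham, filled symbols IRI, and bars the group median. F10 sits at 0.198 to 0.519 CPM in the 3 PMN libraries of sham RIPC and at 170.5 to 345 CPM in the 5 PMN libraries after IRI, and Plaur is higher in every IRI library than in every sham library of its cell type.

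In TECs F10 was near 0 reads in most libraries. The 6 libraries after sham ranged from 0 to 0.398 CPM with a median of 0.0948, and those after IRI held 0.12 and 0.412 CPM in controls and 0.192, 5.71 and 0.369 CPM with RIPC. TECs IRI RIPC replicate 2, with 135 reads, stood above the other 10, which had at most 9 reads each. For IRI against sham the log2 fold change in TECs was 2.54 (SE 1.87, edgeR quasi-likelihood test, Benjamini-Hochberg adjusted p = 0.581). After IRI, F10 was higher in PMNs than in TECs, with a log2 fold change of 8.36 (SE 1.26, edgeR quasi-likelihood test, Benjamini-Hochberg adjusted p = 0.000712), and each PMN library lay above each TEC library. Leaving out TECs IRI RIPC replicate 2 raised this value to 9.79 (adjusted p = 8.247e-05).

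The reads of F10 fell on different transcripts at different levels. The annotation holds 5 transcripts, of which F10-202 is the longest and the only one to reach position 13056676. In PMNs after IRI, F10-201 held 50.0% of the F10 reads, F10-202 26.4% and F10-205 21.8%. The 25 reads of sham RIPC PMNs and the 20.1 and 159 reads of TECs after sham and IRI were all assigned to F10-202. In PMNs Sham Control replicate 2, 92.0% of the F10 reads were on F10-205, against 29.0% in replicate 1. Reads were single-end and 50 bases long, so the split between transcripts that share exons is an estimate.

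**Figure D2:**
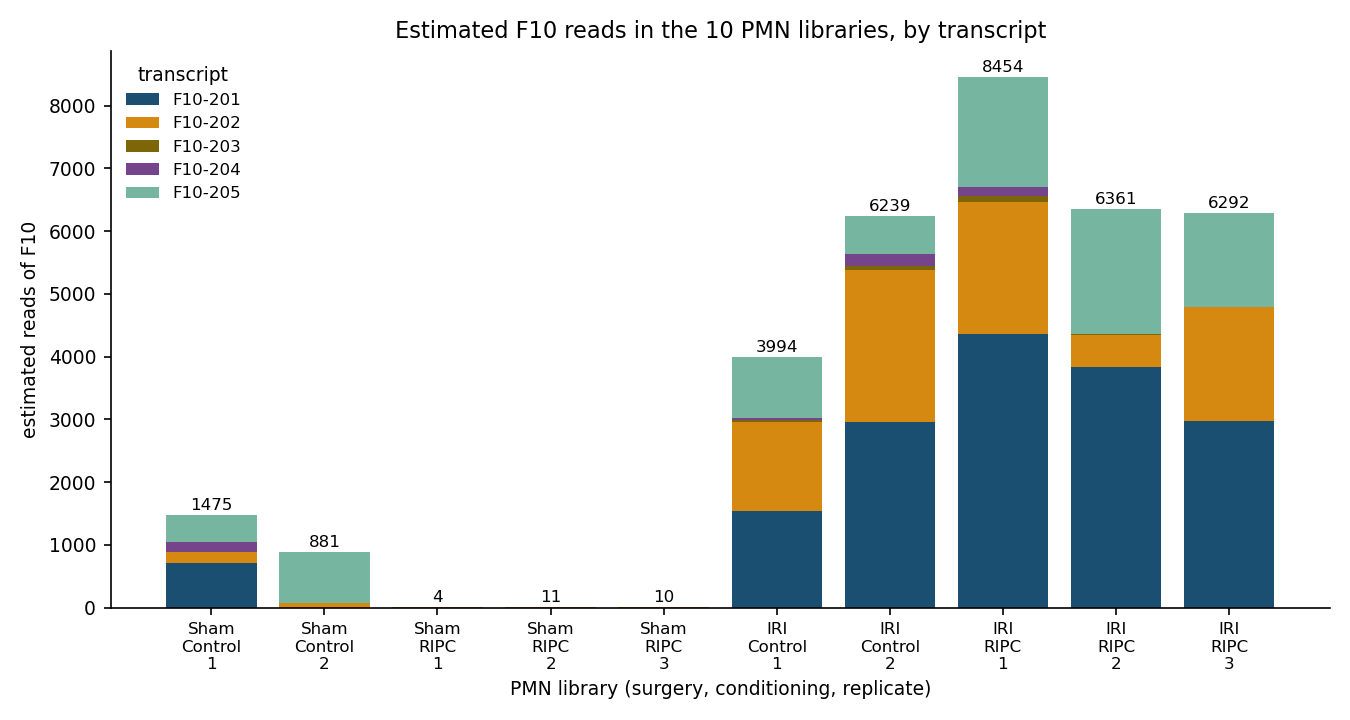
Estimated F10 reads in each of the 10 PMN libraries, stacked by annotated transcript, with the total above each bar. Totals ran from 3994 to 8454 after IRI, were 1475 and 881 in sham controls, and were 4, 11 and 10 in sham RIPC, where all reads were on F10-202.

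Genes with the pattern most like F10 were ranked by Pearson's r of log2 CPM, a description over libraries that share the same groups. Over all 21 libraries and 31769 genes these were Gm43181 (r = 0.978), Gm19951 (0.972), 4833407H14Rik (0.952), Entpd3 (0.951), a nucleotide-hydrolyzing surface enzyme, and P2ry13 (0.948), a receptor for ADP. Over the 10 PMN libraries alone they were St7 (0.98), Gm43181 (0.979), Atp10d (0.977), Usb1 (0.976) and Ccdc88b (0.976). Entpd3 had a median of 11.3 CPM in PMNs after sham and of 216 CPM after IRI. Among the other members over the PMN libraries, Plaur came closest to F10 (r = 0.887, rank 151 of 25002 genes), F13a1 had 0.715, and Plau had the lowest value (-0.825).

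Marker sums of other cells in PMNs are given beside F10. The monocyte and macrophage sum was 8917, 9971 and 3180 CPM in the sham RIPC libraries with the least F10, and 1708 and 2217 CPM in IRI controls and 2678, 2159 and 1419 CPM in IRI RIPC with the most. The hepatocyte list (5 genes) summed to 0.0479 to 20.9 CPM in PMNs, with Apoa1 and Tat at 3 reads or fewer in all 10 libraries. The neutrophil sum was 6078 to 28020 CPM after sham and 12710 to 33560 CPM after IRI, and it was 28020 CPM in PMNs Sham Control replicate 1 against at most 10940 CPM in the other 4 sham libraries. The eosinophil list (4 genes) summed to 0 to 0.693 CPM after sham and to 0.171 and 38.1 CPM in IRI controls and 0.122, 27.1 and 16.9 CPM in IRI RIPC, with Epx and Prg2 at 3 reads or fewer in all 10 libraries. F10 was at 170.5 and 345 CPM in the 2 IRI libraries with an eosinophil sum of 0.171 and 0.122 CPM. The part of these cell types in the F10 level was not tested.

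**Figure D3:**
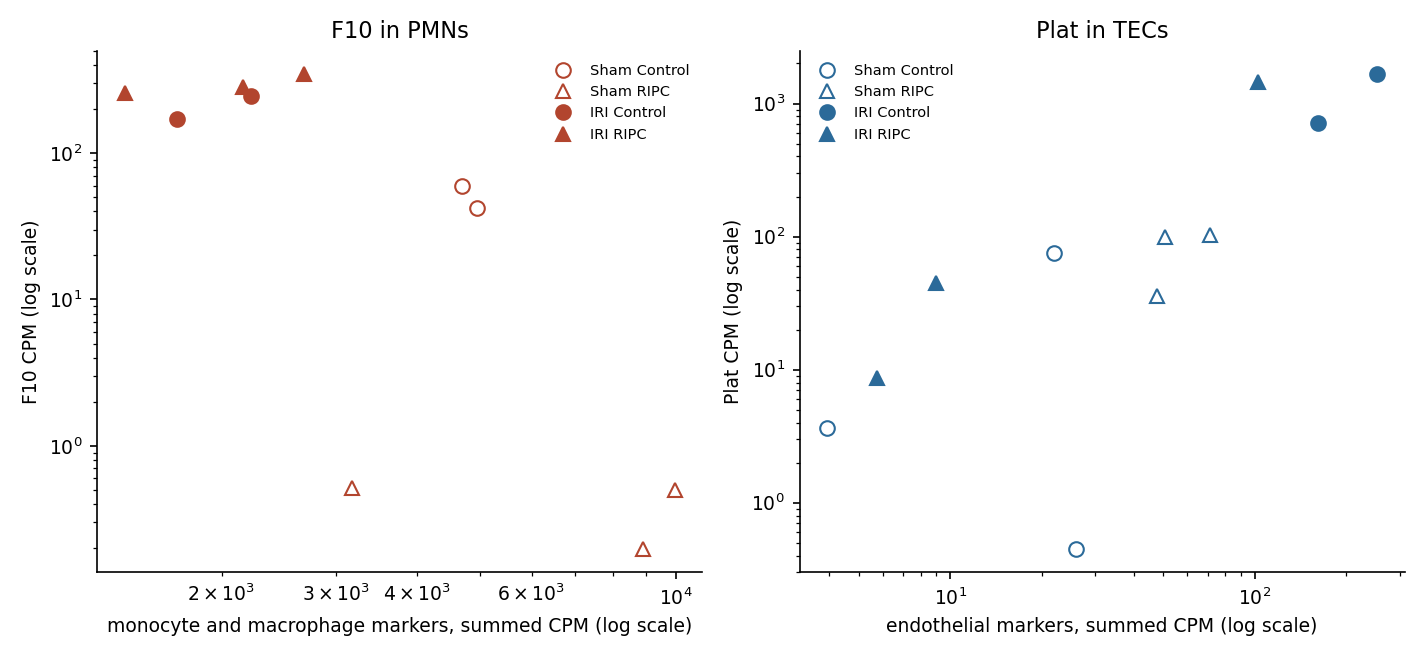
Left, F10 against the summed CPM of the monocyte and macrophage list in the 10 PMN libraries. Right, Plat against the summed CPM of the endothelial list in the 11 TEC libraries. All axes are logarithmic, each point is a library, circles are controls, triangles RIPC, open symbols sham and filled symbols IRI. The 5 PMN libraries after IRI have the highest F10 and sums of 1419 to 2678 CPM, below every sham library, and the 3 TEC libraries with Plat of 712 to 1654 CPM have endothelial sums of 102 to 253 CPM.

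Plaur, the urokinase receptor, was the member with the highest level in PMNs and rose after IRI. In PMNs after sham it measured 406 and 137 CPM in controls and 189, 114.5 and 138 CPM with RIPC. After IRI it measured 802 and 1295 CPM in controls and 1374, 1459 and 1216 CPM with RIPC. All 5 IRI libraries lay above all 5 sham libraries, of which PMNs Sham Control replicate 1 was the highest. That library also had the highest neutrophil sum after sham, and the part of the neutrophil share of RNA in the Plaur level was not tested. The log2 fold change was 2.56 (SE 0.35, edgeR quasi-likelihood test, Benjamini-Hochberg adjusted p = 0.0255). Without single libraries the fold stayed between 2.33 and 3.07, and the call was lost without PMNs IRI Control replicate 2 (adjusted p = 0.0688) and without PMNs IRI RIPC replicate 1 (0.0803), 2 (0.0869) or 3 (0.0677).

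Of the 8 members tested in PMNs apart from F10, Plaur alone was called by edgeR for IRI against sham, where 0.416% of all 25002 genes were called. DESeq2 called 3 of these members and 1955 of all genes. F13a1, F5 and Plau were each called in 1 of the alternative settings. The groups did not overlap for 3 of the 8, Plaur and F13a1 above and Plau below, against 5.5% of all genes in either direction. The median log2 fold change of the 8 was 1.89, beside -0.01 over all genes tested.

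Plaur was also higher in every TEC library after IRI than in every one after sham. After sham it measured 19.9, 0.0499 and 0.15 CPM in controls and 0, 0.0758 and 23.4 CPM with RIPC, and after IRI 127 and 171 CPM in controls and 166, 25.25 and 328 CPM with RIPC. Hence 4 of 6 sham libraries held at most 4 reads, and TECs IRI RIPC replicate 2 lay only just above the highest sham library. The log2 fold change of 4.44 (SE 1.57) did not pass the edgeR test (Benjamini-Hochberg adjusted p = 0.216). It passed without TECs Sham Control replicate 1 (7.44, adjusted p = 0.0472), without TECs Sham RIPC replicate 3 (8.20, 0.0479) or without TECs IRI Control replicate 1 (4.54, 0.029). The first of these sham libraries also had the highest sum of tubular injury genes (Havcr1, Lcn2, Krt20) after sham, 145 CPM, against 0 to 2.22 CPM in the other 5 and 970 to 1779 CPM after IRI. The neutrophil sum in TECs was 1.72 to 32.4 CPM after sham and 34.6 to 109 CPM after IRI, so every IRI library lay above every sham library, with Camp at 3 reads or fewer in all 11. The part of neutrophil RNA and of tubular injury in the Plaur level of TECs was not tested.

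None of the 8 members that passed the low-count filter in TECs was called for IRI against sham, where edgeR called 1.4% of all 25917 genes. At an unadjusted p under 0.05 there were 3 (Plaur, Plat and Plau). DESeq2 called 2 members (Plaur and Plau) and 2234 of all genes. The groups did not overlap for 1, Plaur, against 4.6% of all genes. F7 was not tested in TECs, because its level stayed at 3 reads or fewer in 9 of 11 libraries and reached 27 reads at most. The median log2 fold change of the 8 was 2.45, beside 0.15 over all genes.

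**Figure D4:**
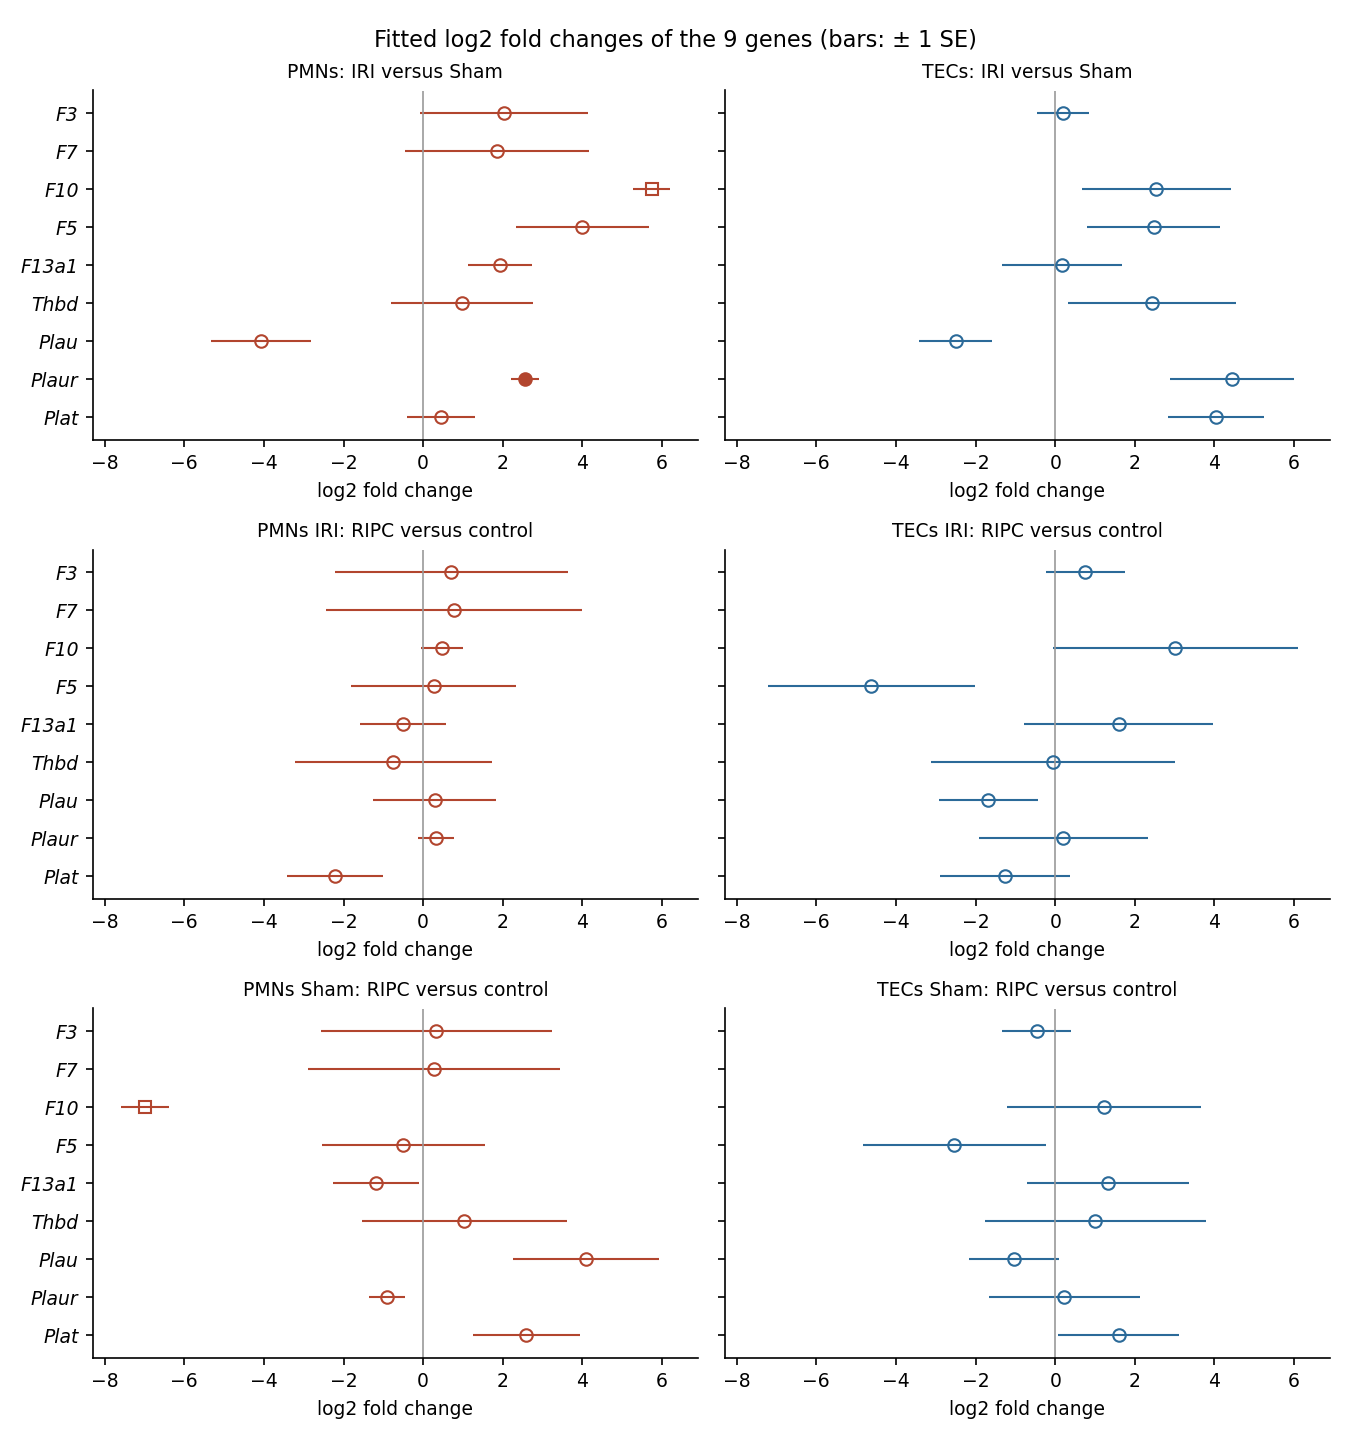
Fitted log2 fold change of each member (point) with 1 SE on either side (bar) in 6 comparisons, PMNs on the left and TECs on the right. A filled point passed the edgeR test, an open circle did not, and a square marks F10 where no test is given. Plaur for IRI against sham in PMNs (2.56) is the only filled point, and F7 is missing in TECs, where it was not tested.

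Urokinase itself was low after IRI in both cell types. In PMNs after sham Plau measured 1.34 and 3.59 CPM in controls and 103, 23.3 and 2.44 CPM with RIPC, and after IRI it measured 0.8965 and 0.196 CPM in controls and 1.02, 0.845 and 0.205 CPM with RIPC. All 5 IRI libraries lay below all 5 sham libraries, and PMNs Sham RIPC replicates 1 and 2 stood far above the rest. The log2 fold change of -4.07 (SE 1.25) did not pass the edgeR test (Benjamini-Hochberg adjusted p = 0.305). In PMNs after sham the proximal tubule sum was also higher, 336.5 to 3116 CPM, than after IRI, 175 to 325 CPM, and it was 1351 and 1110 CPM in the 2 libraries with the most Plau. The highest sum, 3116 CPM in PMNs Sham Control replicate 2, went with a Plau level of 3.59 CPM. The part of tubule RNA in the Plau level of PMNs was not tested.

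In TECs, where it is a known product of the tubule, Plau measured 29.4, 59.7 and 18.7 CPM in sham controls and 21.6, 18.2 and 14.5 CPM in sham RIPC. After IRI it measured 1.08 and 15.4 CPM in controls and 0.693, 1.27 and 5.82 CPM with RIPC. TECs IRI Control replicate 2 reached into the sham range, and the other 4 IRI libraries were below it. The log2 fold change was -2.50 (SE 0.92, edgeR quasi-likelihood test, Benjamini-Hochberg adjusted p = 0.237). The proximal tubule sum was 6147 to 11350 CPM after sham and 952 to 6146 CPM after IRI. The sum of 6146 CPM, in TECs IRI RIPC replicate 3, went with a Plau level of 5.82 CPM. In TECs IRI Control replicate 2, with 15.4 CPM of Plau, the sum was 1696 CPM. The part of the tubule genes in the Plau level of TECs was not tested.

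Tissue plasminogen activator, well known as a product of endothelium, varied widely within the IRI groups of TECs. Plat measured 74.7, 3.64 and 0.451 CPM in sham controls and 99, 35.8 and 103 CPM in sham RIPC. After IRI it measured 1654 and 712 CPM in controls and 1446, 44.9 and 8.73 CPM with RIPC. Thus 3 of 5 IRI libraries were far above every sham library and the other 2, both RIPC, were within the sham range. The log2 fold change for IRI against sham was 4.03 (SE 1.20, edgeR quasi-likelihood test, Benjamini-Hochberg adjusted p = 0.132). It passed without TECs Sham Control replicate 1 (5.80, adjusted p = 0.0342), TECs IRI Control replicate 1 (3.67, 0.0182), TECs IRI Control replicate 2 (4.25, 0.00587) or TECs IRI RIPC replicate 3 (4.34, 0.0472).

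The endothelial list (6 genes, all with more than 3 reads in at least 1 library after sham and after IRI) summed to 253, 161 and 102 CPM in the 3 TEC libraries with Plat of 712 CPM or more. In TECs IRI RIPC replicates 2 and 3 it summed to 9.01 and 5.725 CPM, and over the sham TECs to 3.94 to 71.1 CPM. In PMNs the library with the most Plat, Sham RIPC replicate 3 with 307 CPM, had the highest endothelial sum, 263 CPM, against 6.75 to 63.5 CPM in the other 9. The sum of 63.5 CPM, in PMNs IRI RIPC replicate 1, went with a Plat level of 26.6 CPM. In PMNs IRI Control replicate 2, with 182 CPM of Plat, the sum was 56.3 CPM. The part of endothelial RNA in the Plat level was not tested. In these other 9 PMN libraries Plat measured 25.4 and 12.4 CPM in sham controls, 27.7 and 20.5 CPM in sham RIPC, 93.3 and 182 CPM in IRI controls and 26.6, 8.36 and 56 CPM in IRI RIPC. For IRI against sham in PMNs the log2 fold change of Plat was 0.45 (SE 0.86, edgeR quasi-likelihood test, Benjamini-Hochberg adjusted p = 0.908).

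F13a1, the A subunit of factor XIII and a known product of platelets and of monocytes and macrophages, set PMNs apart from TECs. In PMNs it measured 378 and 36.5 CPM in sham controls, 123, 147 and 7.84 CPM in sham RIPC, 524 and 733 CPM in IRI controls and 475.5, 483 and 406 CPM in IRI RIPC. In TECs it ranged from 0 to 4.935 CPM after sham, with a median of 1.86, and measured 0.797 and 1.785 CPM in IRI controls and 2.96, 4.36 and 4.29 CPM in IRI RIPC. The lowest PMN library, Sham RIPC replicate 3, was above the highest TEC library. PMNs exceeded TECs by a log2 fold change of 7.02 (SE 0.83, adjusted p = 1.429e-05), and after IRI alone by 7.90 (SE 1.26, adjusted p = 0.00115, both by the edgeR quasi-likelihood test with Benjamini-Hochberg adjustment). Without PMNs Sham Control replicate 1 the first value was 6.36 (adjusted p = 3.353e-07).

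In PMNs every IRI library of F13a1 was above every sham library, but the spread after sham was wide, and the log2 fold change of 1.93 (SE 0.81) did not pass the edgeR test (Benjamini-Hochberg adjusted p = 0.413). The platelet and megakaryocyte list (9 genes) summed to 29.1 to 212.5 CPM in PMNs after sham, with Gp1bb and Tubb1 at 3 reads or fewer in all 5 libraries, and to 40.6 to 348 CPM after IRI, with Gp9 at 3 reads or fewer in all 5. The monocyte and macrophage sum, given above, was lower after IRI than after sham. In TECs the platelet sum was 2.31 to 17.6 CPM and the monocyte and macrophage sum 3.265 to 62.75 CPM. The part of either cell type in the F13a1 level was not tested. Long noncoding genes Gm49144 and Gm30489 lie antisense to F13a1, and without a stated strand their reads and those of F13a1 cannot be told apart where exons overlap.

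Plaur was likewise higher in PMNs than in TECs over all groups, by a log2 fold change of 3.84 (SE 1.01, edgeR quasi-likelihood test, Benjamini-Hochberg adjusted p = 0.0221). The value rose to 5.35 without TECs Sham Control replicate 1 (adjusted p = 0.00109) and to 5.66 without TECs Sham RIPC replicate 3 (0.000458). After IRI alone every PMN library was above every TEC library, yet the log2 fold change of 2.89 (SE 1.40) did not pass (adjusted p = 0.351). Over all groups 2 of the 8 members other than F10 were called, both higher in PMNs, where 6.87% of 31769 genes were called, and the groups did not overlap for 1, F13a1, against 1.1% of all genes. After IRI 2 of 9 were called, F10 and F13a1, against 2.67% of all genes, and 3 did not overlap, F10, F13a1 and Plaur, against 6.88%. Both counts of members include F7, which was not called and entered the fit through its reads in PMNs.

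The initiators of clotting were less even. Tissue factor, F3, was the member with the highest median TPM in TECs, with 20.1 TPM (range 3.09 to 40.25), and F10 had 0.0353 TPM there. In TECs F3 ranged from 8.35 to 154 CPM after sham, with a median of 63.8, and from 47.5 to 177 CPM after IRI, so the groups overlapped, and the log2 fold change was 0.19 (SE 0.64, edgeR quasi-likelihood test, Benjamini-Hochberg adjusted p = 0.988). In PMNs F3 was at 0 reads in both PMNs Sham Control replicate 2 and Sham RIPC replicate 1 and in PMNs IRI Control replicate 1, while the other 4 IRI libraries held 43.5 to 75.8 CPM and the other 3 sham libraries 4.515 to 31.9 CPM. That comparison gave 2.03 (SE 2.12, adjusted p = 0.735). Against TECs, F3 was called lower in PMNs only without PMNs Sham Control replicate 1 (-4.40, adjusted p = 0.048) or without PMNs IRI Control replicate 2 (-4.87, 0.0209), and with all libraries the value was -1.64 (SE 1.04, adjusted p = 0.508).

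F7, whose protein is the partner of tissue factor, was low throughout. It ranged from 0 to 5.81 CPM in PMNs after sham and from 0.0854 to 22.3 CPM after IRI, and 4 of 10 PMN libraries held 3 reads or fewer. F7 entered the fit to all libraries through its reads in PMNs, so its difference from TECs, where the median was 0 CPM, is given without a test. F5, the cofactor of factor X, ranged from 0 to 4.75 CPM in PMNs after sham and from 3.1 to 85 CPM after IRI, with 30.3 and 29.8 CPM in controls and 3.1, 23.5 and 85 CPM with RIPC. Only PMNs IRI RIPC replicate 1 fell into the sham range of F5, and the log2 fold change of 4.00 (SE 1.68) did not pass the edgeR test (Benjamini-Hochberg adjusted p = 0.413). In TECs F5 ranged from 0 to 4.55 CPM after sham and from 0.199 to 35.4 CPM after IRI. Thbd, the anticoagulant receptor, ranged from 0 to 54.3 CPM in PMNs after sham and from 11.1 to 44.2 CPM after IRI, and from 0 to 62 CPM in TECs, with 3 reads or fewer in 5 of 11 TEC libraries.

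**Figure D5:**
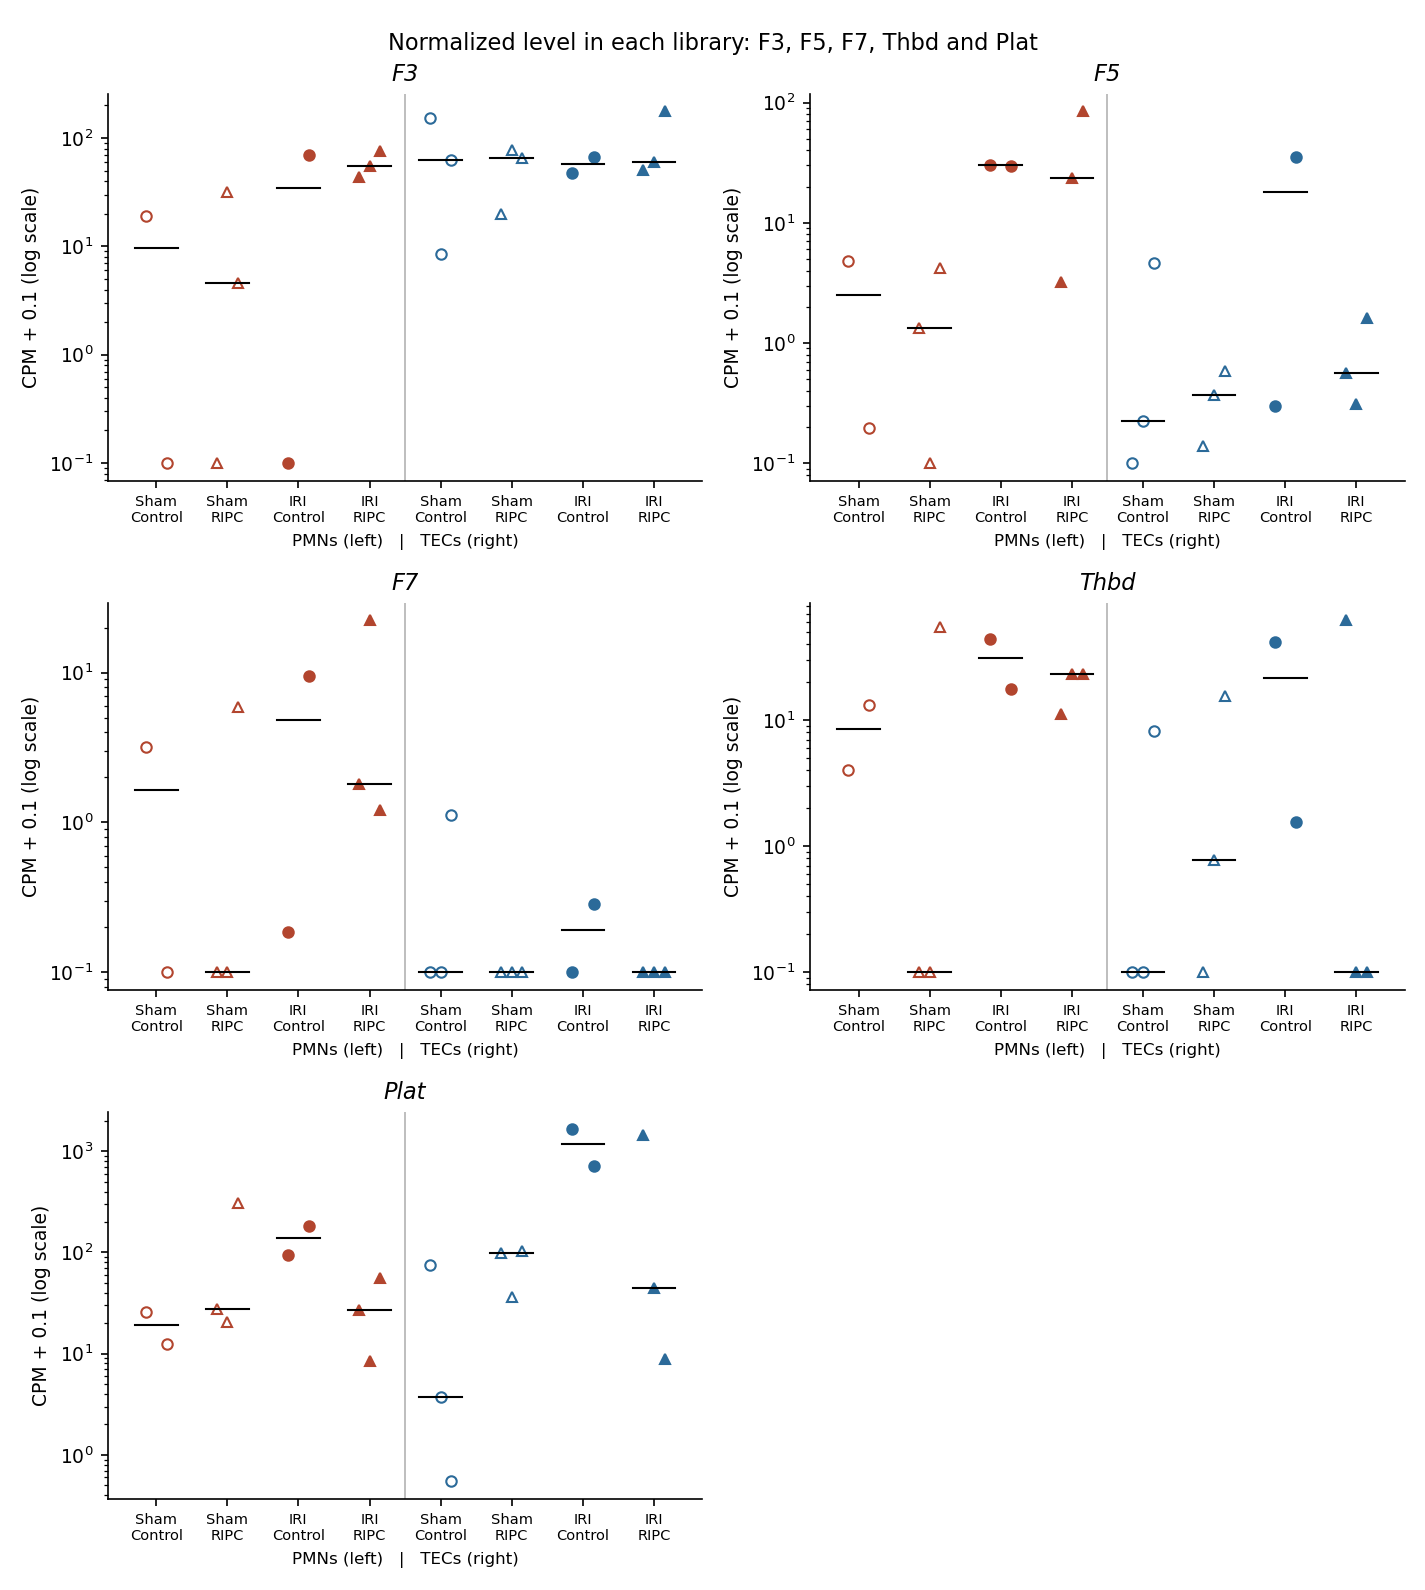
Level of F3, F5, F7, Thbd and Plat in each library, as CPM + 0.1 on a log axis, with PMNs in red on the left and TECs in blue on the right. Circles are controls, triangles RIPC, open symbols sham, filled symbols IRI, and bars the group median. Libraries at 0 reads sit at 0.1, among them F3 in 3 PMN libraries, and Plat in TECs after IRI spans 8.73 to 1654 CPM.

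Compared per length, the order of the members in PMNs after IRI was led by Plaur, with a median of 703 TPM (528 to 879), which overlapped no other member. F10 followed with 80.5 TPM (55.65 to 106) and F13a1 with 71.8 TPM (59.4 to 103), ranges that overlapped each other. F3 had 19.7 TPM (0 to 26.9) and Plat 11.4 TPM (1.5 to 36.1), and their ranges overlapped each other and lay below that of F10. In PMNs after sham Plaur again led with 55.1 TPM (50 to 270), F13a1 had 16.1 TPM (1.67 to 61.7), and F10 was seventh by median with 0.12 TPM (0.0389 to 23.2). In TECs after IRI the order was Plat with 107 TPM (5.435 to 292), Plaur with 50.3 TPM (10.8 to 115) and F3 with 18.3 TPM (12.8 to 40.25), and these 3 ranges overlapped.

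For RIPC against control no member passed the edgeR quasi-likelihood test in any of the 3 comparisons that can be tested in full, nor did any of the 8 members other than F10 in PMNs after sham. These tests could miss large changes. Of 100 simulated 64-fold changes in genes drawn at random from those tested, 14 were called in PMNs after IRI and 28 in TECs after IRI. These rates hold for the genes as drawn, and the rate for a given member was not simulated. In PMNs after IRI edgeR called 0 of the 9 members and 0.0% of all genes, and 0 members had an unadjusted p under 0.05. DESeq2 called 0 of the members and 429 of all genes. The groups did not overlap for 3, F10 above and Plat and F13a1 below, against 16.4% of all genes. Plat had a log2 fold change of -2.22 (SE 1.21, adjusted p = 0.92), from 93.3 and 182 CPM in controls to at most 56 CPM with RIPC, and F13a1 one of -0.51 (SE 1.09, adjusted p = 1.0). In TECs after IRI edgeR called 0 of 8 members and 0.00386% of all genes, and 0 members had an unadjusted p under 0.05. DESeq2 called 0 of the members and 699 of all genes. The groups did not overlap for 1, F13a1 above, against 16.9%.

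In TECs after sham 0 of 8 members were called, where 0.0% of all genes were called, and 0 did not overlap, against 7.83%. In PMNs after sham 0 of 8 were called, where 0.004% of all genes were called, and 0 of the 8 did not overlap, against 12.7%. Of these members 0 had an unadjusted p under 0.05 and 0 were called by DESeq2 in either comparison. Of all genes DESeq2 called 425 in TECs and 813 in PMNs. The largest fitted values there were those of Plau in PMNs, 4.09 (SE 1.84, Benjamini-Hochberg adjusted p = 0.705), which rests on 2 libraries with 2072 and 512 reads, and of F5 in TECs, -2.53 (SE 2.30, adjusted p = 0.993). For Plaur, the member with the smallest error in PMNs, the value was -0.91 (SE 0.45, adjusted p = 0.705) after sham and 0.32 (SE 0.46, adjusted p = 1.0) after IRI.

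The effect of IRI was compared between PMNs and TECs for the 8 members other than F10. For F7, which was near 0 in TECs, the SE was 7283, so its difference could not be estimated. No member differed by the edgeR interaction test, which called 0.0% of all 31769 genes while 3102 had an unadjusted p under 0.05. DESeq2 called 2395 of all genes and 0 of these members. Of the members only Plat had an unadjusted p under 0.05, with a difference of -3.62 on the log2 scale (SE 1.63, Benjamini-Hochberg adjusted p = 0.466), as its IRI effect was 0.45 in PMNs and 4.03 in TECs. For Plaur, with 2.56 in PMNs and 4.44 in TECs, the difference was -1.90 (SE 1.79, adjusted p = 0.973). For Plau, with -4.07 and -2.50, it was -1.59 (SE 1.42, adjusted p = 0.945).

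Around these members, 39 further genes of the pathway were listed. In PMNs for IRI against sham none of the 36 tested was called, where 0.416% of all genes were called. Neither was any called in the 4 RIPC comparisons, where at most 0.004% of all genes were called. In TECs for IRI against sham 3 of 35 were called higher and 1 lower, where 1.4% of all genes were called in either direction. The higher ones were Anxa2 and S100a10, the subunits of a complex that binds plasminogen at the cell surface, and Serpine2, an inhibitor of thrombin and plasminogen activators. Anxa2 went from a median of 10.1 CPM (0 to 23.7) to 236 CPM (89.8 to 434), with a log2 fold change of 4.83 (SE 0.96, adjusted p = 0.0254). S100a10 went from 77.5 CPM (71 to 645) to 978 CPM (721.5 to 1491), with 2.93 (SE 0.51, adjusted p = 0.0131), so the groups did not overlap for either gene. The lower gene was Eno1, a glycolytic enzyme that also binds plasminogen at the surface, with a median of 2367 CPM after sham and 668 CPM after IRI and a log2 fold change of -1.67 (SE 0.31, edgeR quasi-likelihood test, Benjamini-Hochberg adjusted p = 0.0172).

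Serpine2 ranged from 0.274 to 26.4 CPM after sham and from 11.7 to 386 CPM after IRI, with 3.99 (SE 0.90, edgeR adjusted p = 0.045), and its groups overlapped. The adjusted p passed 0.05 when single TEC libraries were left out, 4 of 11 for Anxa2 (0.0749 to 0.1), 3 for S100a10 (0.0507 to 0.0593), 2 for Eno1 (0.0569 to 0.0654) and 7 for Serpine2 (0.0509 to 0.133). For Anxa2 these were TECs Sham Control replicate 3 and each TECs Sham RIPC library, for S100a10 Sham Control replicate 2 and Sham RIPC replicates 1 and 2, and for Eno1 Sham RIPC replicates 1 and 2. For Serpine2 they were each of the 6 sham libraries and IRI RIPC replicate 1. Without that last library its log2 fold change was 2.62.

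RNA of Anxa2, a subunit of the plasminogen-binding complex, was also present in PMNs, at 332 to 811 CPM after sham and 777 to 1215 CPM after IRI. The complex itself was not measured, and its other subunit, S100a10, was called lower in PMNs than in TECs after IRI. Over all groups Anxa2 was the single pathway gene called higher in PMNs than in TECs, by a log2 fold change of 4.01 (SE 0.63, edgeR quasi-likelihood test, Benjamini-Hochberg adjusted p = 0.000313). Another 6 of 38 were called lower in PMNs, the fibrinogen chains Fga, Fgb and Fgg, F13b (the carrier subunit of factor XIII), Proc (protein C) and Serpinf2 (the plasmin inhibitor). Of all genes 6.87% were called in either direction. The strongest by adjusted p was Fgg, with medians of 0.143 CPM in PMNs and 53 CPM in TECs and a log2 fold change of -7.90 (SE 1.36, adjusted p = 0.000764). The call of Fgg held without each of the 21 libraries in turn. That of Serpinf2 (-7.07) was lost without TECs IRI RIPC replicate 3 (-4.43, adjusted p = 0.9999), that of Fga (-4.12) without TECs Sham Control replicate 1 (-3.02, 0.0598), and that of Proc (-2.27) without PMNs IRI Control replicate 2 (0.0679) or PMNs Sham Control replicate 1 (0.05001). That of Fgb was lost without PMNs Sham Control replicate 1 or 2, TECs Sham Control replicate 1 or TECs Sham RIPC replicate 2 (0.0502 to 0.0825). That of F13b was lost without PMNs IRI Control replicate 2, PMNs Sham Control replicate 2, TECs IRI RIPC replicate 3, any TECs Sham Control library or TECs Sham RIPC replicate 1 or 2 (0.0518 to 0.0766).

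After IRI alone 1 of the 38 was called higher in PMNs, Serpinb2, which encodes the plasminogen activator inhibitor of leukocytes, with 17.4 to 39.9 CPM in PMNs and 0 to 1.75 CPM in TECs (log2 fold change 8.60, SE 2.27, edgeR adjusted p = 0.0495). This call was lost when any of 13 of the 21 libraries was left out (adjusted p up to 0.221). Proc (-3.40), Serpinf2 (-10.4), Fgg (-8.61) and S100a10 (-2.16) were called lower in PMNs, where 2.67% of all genes were called in either direction. Leaving out single libraries ended these calls in 5, 12, 1 and 6 cases. The case for Fgg was PMNs IRI Control replicate 1 (adjusted p = 0.0571), and without TECs IRI RIPC replicate 3 the value of Serpinf2 was -5.08. Plasminogen itself, Plg, reached at most 66 reads in any library and was at 3 reads or fewer in 8 of 10 PMN and 9 of 11 TEC libraries. Of the vitamin K cycle, which finishes factors VII and X in the cell, Ggcx had a median of 36.5 CPM (1.73 to 65.2) in PMNs after sham and of 0.823 CPM (0.222 to 2.6) after IRI, and its log2 fold change of -4.93 (SE 1.25) did not pass the edgeR test (Benjamini-Hochberg adjusted p = 0.188).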

How the data were processed

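RNA of sorted mouse PMNs and TECs was reverse transcribed from the polyA tail and sequenced as single-end 50-base reads. Per the labels' processing notes the authors used Trim Galore 0.6.4, Salmon 1.0.0, FastQC, MultiQC and DESeq2. The deposited tables give estimated counts and TPM per transcript, in 2 files per library. The reason for the 2 files is not given in the sources used here. Their totals differed by less than 1 percent and their gene counts by 0.357 to 0.665 times Poisson noise, so both were added and counted as 1 library, and TPM was averaged. Estimated counts were summed per gene with the Gencode vM21 annotation of GRCm38 (139864 of 140748 transcripts matched, the other 884 holding 0.139 to 0.255% of reads) and rounded. The strand of counting is not given in the sources used here.

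Groups came from the labels. The study describes 3 biological replicate libraries per group, and 3 of the 8 groups held 2 here. edgeR 4.0.16 (R 4.3.3) was used with TMM scaling, its filter on low counts and the quasi-likelihood test, on the 4 groups of a cell type or all 8 groups, with Benjamini-Hochberg adjustment over all genes tested and a threshold of 0.05. The filter left 25002 genes in PMNs, 25917 in TECs and 31769 in all libraries. F7 did not pass it in TECs. Standard errors were derived from the fold change and the F statistic. In simulated data the changed genes were drawn at random from those tested. For IRI against sham in PMNs (23160 genes), 2 of 100 genes changed 8-fold and 42 of 100 changed 64-fold were called, and for TECs (23564 genes) 28 and 49 of 100. For RIPC against control after IRI these were 0 and 14 of 100 in PMNs and 3 and 28 of 100 in TECs. For PMNs against TECs they were 9 and 57 of 100. Alternatives were DESeq2 1.42.0 (size factors, Wald test, apeglm 1.24.0), no filter, each file alone, a transcript length offset, the compared groups alone, a replicate block and leaving out each library. Reads carry no molecular identifiers.

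Named were the 9 members, up to 5 pathway genes per list and comparison with the smallest adjusted p under the threshold, and the 5 genes most like F10 by Pearson's r of log2(CPM + 1). Plg and Ggcx were named after their values were seen. The members and lists were chosen with earlier results of these data known.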

Additional observations from a re-analysis of the deposited data

How the results depend on the processing

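No call of a member reversed its direction. Directions of fold changes that were not called are not given for every setting. Without the filter on low counts, the number of members called was 1 for the difference of the IRI effect between cell types, 4 for PMNs against TECs, 4 for PMNs against TECs after IRI, 2 for IRI against sham in PMNs and 2 in TECs. With the DESeq2 Wald test it was 4, 4, 3 and 2 for the last 4 of these comparisons. For PMNs against TECs over all groups the counts of 4 included F7, and after IRI F7 was called in 1 setting only. F7 is near 0 in TECs and entered the fit to all libraries through its reads in PMNs, so its call is not read as a tested difference. Deviations of same-numbered libraries from different groups correlated between -0.021 and 0.024 within PMNs and between -0.09 and 0.11 within TECs. Whether PMN and TEC libraries of the same number came from the same animal was not examined. With the replicate block 0 members were called for IRI against sham in PMNs, where Plaur had an adjusted p of 0.0957, and 1 in TECs, Plaur (0.0398). For PMNs against TECs the block ended the calls of Plaur (3.80, adjusted p = 0.403), Anxa2 (3.16, 0.0562), Proc (0.649), F13b (1.0) and Fgb (0.0798) and added Plat (-4.04, 0.0267) and Kng2 (-4.34, 0.0405). After IRI it ended those of Proc (0.214), S100a10 (0.134) and Serpinb2 (0.336) and added Plat (-5.19, 0.0134) and Fga (-6.47, 0.0455). Leaving out single libraries gave 0 to 1 members for IRI against sham in PMNs, 0 to 2 in TECs and 2 to 3 for PMNs against TECs. The member added for PMNs against TECs was F7 in 5 cases and F3 in 2.

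Over all genes tested, counts of calls varied more. For IRI against sham in PMNs 104 genes were called, 971 without the filter, 1955 by the DESeq2 Wald test, 23 with the block and 13 to 393 without single libraries. In TECs 363 were called, 1289 without the filter, 2234 by DESeq2 and 92 to 714 without single libraries. The 2182 genes called between PMNs and TECs became 5379 by DESeq2 and 713 with the block, and the 847 called after IRI became 1763 without the filter and 3725 by DESeq2. For the difference between cell types 0 became 722, 2395 and, with the block, 15, and 1 with either file alone, and leaving out libraries gave 0 to 124. RIPC against control called 1 gene in PMNs after sham, against 139 without the filter, 813 by DESeq2 and 528 with apeglm, 0 with the second file alone, the block or the compared groups alone, and 0 to 11 without single libraries. The 0 genes in PMNs after IRI became 18, 429 and 40 under the first 3 of these, the 0 in TECs after sham 54, 425 and 62 (0 to 6 without single libraries), and the 1 in TECs after IRI 71, 699 and 246 (2 with the first file, 3 with the block, 0 with the compared groups alone, 0 to 22 without single libraries). The causes were not tested. Groups of 2 or 3 libraries, and the spread between libraries of a group, limit what could be called.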
